A study of Mus musculus with 6 samples.

Results

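The expression of 10 transcription factor genes was described in wild-type mouse regulatory T cells (Treg): Jun, Junb, Jund, Fos, Fosb, Fosl2, Batf, Bach2, Atf3 and Maf. They were taken by symbol from a table of 24421 genes, and all 10 were found and passed the filter on low values. Treg from spleen and lymph nodes were profiled by SMART-seq, which copies poly(A) RNA into cDNA and amplifies it by PCR, in 3 groups of 2 libraries. These were WT Treg stimulated in vitro with iBP, used in the study to inhibit H2AK119ub1 (the histone H2A ubiquitin mark set by Polycomb repressive complex 1), WT Treg stimulated without iBP, and WT Treg left unstimulated. The sources used here do not state the stimulus, its duration, the iBP dose or the age and strain of the mice, and the mark itself was not measured here. The part of time in culture in the differences from unstimulated Treg was not tested. The Kdm2b cKO cells named in the study design were not analysed here.

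The products of these genes carry a basic leucine zipper (bZIP), a helix that grips DNA and pairs with a second zipper protein. JUN and FOS proteins pair to form AP-1, which is activated soon after T-cell receptor and MAP kinase signalling and works together with NFAT on cytokine genes. BATF pairs with JUN proteins, recruits IRF4 and is needed for effector Treg in tissues, while BACH2 competes for AP-1-like sites and represses effector genes. ATF3 is induced by stress signals, and c-MAF (Maf) drives Il10 and other cytokine genes.

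Of the 10 members, 1 (Jun) passed the test, and it was higher after stimulation both with and without iBP. The ratio of its mean FPKM to that of unstimulated Treg was 2.16 with iBP and 2.03 without. No member passed between stimulated Treg with iBP and without it. FPKM is a read count scaled to transcript length and library size. Levels of different genes can be compared by it only as far as the gene models used are right. Differences were tested with limma on log2(FPKM + 1) in 1 fit over all 6 libraries, with Benjamini-Hochberg adjustment over 10436 genes, and a gene passed where its adjusted p was under 0.05. On this scale the fold change of a low gene is understated.

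Read depth is unknown, and summed FPKM was 366044 to 381302 per library. Unstimulated replicate 1 stood apart: it lay at -37.9 on the first principal component, the other unstimulated library at -9.32 and the 4 stimulated ones at 10.5 to 13.3. Foxp3, which defines Treg, had 122 and 124 FPKM with iBP, 121 and 101 FPKM with stimulation, and 35.5 and 47.1 FPKM without. The 5 Treg markers summed to 1399 to 1415 FPKM with iBP, 1440 to 1566 FPKM with stimulation and 969 to 980.2 FPKM without, most of it from Tnfrsf18. Of the 5, Foxp3, Il2ra and Ctla4 rose with iBP, and Foxp3, Il2ra and Tnfrsf18 with stimulation alone, each against unstimulated Treg (limma), while Ikzf2 stood at -0.04 and -0.19 (adjusted p = 0.957 and 0.746). Of 5 T-cell markers 4 were found (Cd3e, Cd3d, Cd3g and Cd4). They summed to 398 to 411 FPKM with iBP, 377 to 396 FPKM with stimulation and 388 to 404 FPKM without. The 5 B-cell markers, all above the filter, summed to 659 to 689.9 FPKM, 752 to 800.4 FPKM and 754 to 763 FPKM in the same groups. Each B-cell sum was above each T-cell sum. Of 7 myeloid markers only Lyz2 passed the filter, at 65.5 to 99.5 FPKM over the 6 libraries. Of 7 dendritic cell markers 5 passed, and the list summed to 6898 to 7159 FPKM with iBP, 6729 to 7757 FPKM with stimulation and 6418 to 8217 FPKM without. Nearly all of it came from the antigen presentation genes H2-Aa, H2-Ab1 and Cd74, which B cells also express, and the integrin gene Itgax was at 0 to 0.126 FPKM. The 5 erythroid markers summed to 298 to 636 FPKM with iBP, 753 to 758 FPKM with stimulation and 642 to 744 FPKM without. The lowest sum was iBP replicate 2, where Hba-a2 had 120 FPKM, against 509 to 686 FPKM in the other libraries. Hba-a1 ran from 0 to 179 FPKM over the 6 libraries. B cells express several of the 10 members too. The part of other cells in the members' values was not tested, and in bulk RNA fewer cells of a type and less RNA per cell cannot be told apart.

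**Figure D1:**
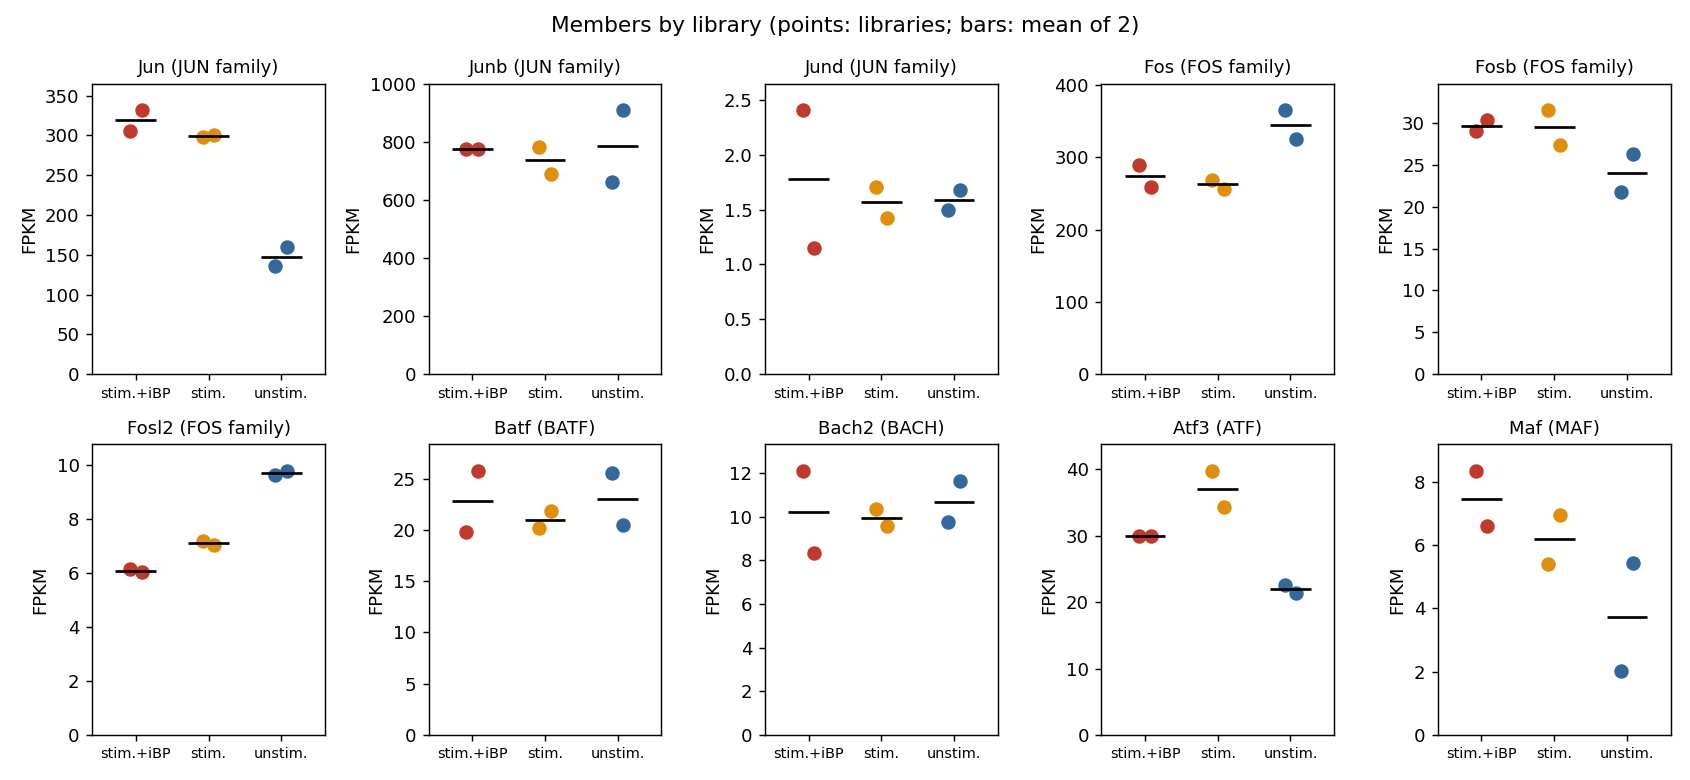
FPKM of each member (y axis, linear from 0) in stimulated Treg with iBP, stimulated Treg and unstimulated Treg; points are libraries and bars the mean of 2. Jun lies between 298 and 332 FPKM in the 4 stimulated libraries, against 136 and 159.8 FPKM in the unstimulated ones.

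Among the JUN genes, Jun, the archetypal AP-1 subunit, had 306 and 332 FPKM with iBP, 298 and 300.5 FPKM with stimulation alone, and 136 and 159.8 FPKM without stimulation. All 4 stimulated libraries lay above both unstimulated ones. The log2 difference of stimulated from unstimulated Treg was 1.02 ± 0.12 (SE; 95% interval 0.76 to 1.27; adjusted p = 0.00114, limma), and that of stimulated Treg with iBP from unstimulated Treg was 1.11 ± 0.12 (0.85 to 1.36; adjusted p = 0.000746). Both comparisons use the same unstimulated libraries. Without unstimulated replicate 1 the differences were 0.90 and 0.99 (adjusted p = 0.00864 and 0.00429, limma). The calls held without any 1 library but ended with no filter on low values (0.106 and 0.0804) and with no trend of variance on level (0.146 and 0.135).

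In stimulated against unstimulated Treg, 1 of 10 members passed, against 1.29% of all tested genes, 0.968% as higher and 0.326% as lower. An unadjusted p under 0.05 was found for 3 members (Jun, Atf3 and Fos) and 10.8% of all genes. The libraries of the groups did not overlap for 3 members that were higher (18.7% of all genes) and 2 that were lower (19.1%). With iBP against unstimulated Treg, 1 of 10 passed, against 1.75% of all genes, 1.03% as higher and 0.728% as lower. There 5 members had an unadjusted p under 0.05 (12.2% of all genes), 4 did not overlap and were higher (18.1%) and 2 did not overlap and were lower (23.9%).

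The promoters of Jun, Atf3 and Fos are shown because these 3 members had the smallest unadjusted p in stimulated against unstimulated Treg, Jun and Atf3 with higher levels and Fos with lower ones. Sequences are those of RefSeq (GRCm38.p6), 250 bases before to 50 after the annotated start, 5′ to 3′ on the strand of the gene, and entries were found for 9 of 10 members. Searched on both strands were the AP-1 site (TGACTCA), the CRE (TGACGTCA), TGACATCA (a site known from the JUN promoter), TGACG (the core of the CRE, which also lies within a full CRE), the MAF-type site TGCTGAC and the CArG box of serum response factor, and on the strand of the gene TATAAA. Capitals mark matches.
Jun, chr4:95052173-95052472, minus strand: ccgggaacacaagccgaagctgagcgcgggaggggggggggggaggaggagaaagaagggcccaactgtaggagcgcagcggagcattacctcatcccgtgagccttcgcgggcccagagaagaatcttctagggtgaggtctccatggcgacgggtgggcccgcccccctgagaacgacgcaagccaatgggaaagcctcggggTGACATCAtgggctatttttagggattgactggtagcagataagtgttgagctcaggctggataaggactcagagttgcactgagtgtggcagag
Atf3, chr1:191183284-191183583, minus strand: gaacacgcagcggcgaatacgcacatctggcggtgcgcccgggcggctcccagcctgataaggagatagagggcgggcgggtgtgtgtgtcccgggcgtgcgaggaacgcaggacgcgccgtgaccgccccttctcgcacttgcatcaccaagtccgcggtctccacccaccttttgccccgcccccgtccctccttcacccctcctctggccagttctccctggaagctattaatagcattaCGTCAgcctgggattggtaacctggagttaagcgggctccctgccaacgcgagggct
Fos, chr12:85473640-85473939, plus strand: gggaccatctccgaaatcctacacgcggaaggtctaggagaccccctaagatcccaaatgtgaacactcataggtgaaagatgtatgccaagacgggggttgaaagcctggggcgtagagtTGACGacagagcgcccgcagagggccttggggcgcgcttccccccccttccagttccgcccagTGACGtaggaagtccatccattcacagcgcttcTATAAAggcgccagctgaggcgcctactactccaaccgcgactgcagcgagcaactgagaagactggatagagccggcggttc
Jun holds TGACATCA, which begins at -45 from the start and is found in 3.62% of 32851 RefSeq promoters of this length. Fos holds TGACG at -129 and -66 and TATAAA at -33, and Atf3 holds TGACG on its other strand at -7. TGACG was also found in the promoters of Junb, Fosb and Batf, and in 20.8% of all promoters. TATAAA was also found in Junb, where it begins on the RefSeq start itself, and in 8.32% of all. GENCODE M21 starts Junb further along, at chr8:84978718 (minus strand), so that TATAAA lies before that start. The AP-1 site (5.2% of promoters), the full CRE (1.79%), TGCTGAC (4.67%) and the CArG box (1.63%) had no match in the windows of the 9 members, which says only that these letters are not there. The windows of Atf3, Bach2 and Fosl2 lie inside the genes as drawn in GENCODE M21 and miss their outermost start. That of Jund lies wholly before its gene. Other starts of these genes were not searched.

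Junb, a JUN protein that also pairs with BATF, was the most abundant member. It had 778 FPKM in both iBP libraries, 783 and 691 FPKM in stimulated Treg and 663 and 911 FPKM in unstimulated Treg. The unstimulated libraries span the other 4. Its difference was -0.08 ± 0.14 in stimulated against unstimulated Treg (95% interval -0.39 to 0.23; adjusted p = 0.912, limma). Jund, a JUN protein often present in resting cells, had the lowest mean FPKM of the 10. It had 2.41 and 1.15 FPKM with iBP, 1.71 and 1.42 FPKM with stimulation and 1.49 and 1.68 FPKM without. The iBP libraries lay on either side of all others, and its interval of -0.79 to 0.77 in stimulated against unstimulated Treg was the widest of the 10.

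Among the FOS genes, the most abundant was Fos, the classical immediate-early gene, with 289 and 259 FPKM with iBP, 268 and 257 FPKM with stimulation and 365 and 325 FPKM without. The 4 stimulated libraries were all below the unstimulated ones, in the opposite direction to Jun. The difference of -0.39 ± 0.11 in stimulated against unstimulated Treg (95% interval -0.64 to -0.14) did not pass (adjusted p = 0.167, limma), nor did that of -0.33 ± 0.11 with iBP against unstimulated Treg (adjusted p = 0.228).

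Fosl2, which encodes the AP-1 subunit FRA2, had 6.14 and 6.05 FPKM with iBP, 7.18 and 7.05 FPKM with stimulation and 9.65 and 9.80 FPKM without. Its 3 groups did not overlap and the libraries of each group lay close together. Its differences of -0.60 ± 0.23 with iBP and -0.40 ± 0.23 without it, each against unstimulated Treg, did not pass (adjusted p = 0.298 and 0.582, limma). The standard error is larger than the spread of its own libraries because limma draws it toward that of genes of similar level. Fosb, another immediate-early FOS gene, had 29.1 and 30.3 FPKM with iBP, 31.6 and 27.4 FPKM with stimulation and 21.8 and 26.3 FPKM without. The 4 stimulated libraries lay above the unstimulated ones, with differences of 0.30 ± 0.17 with iBP and 0.29 ± 0.17 without (adjusted p = 0.522 and 0.601, limma). Leaving out unstimulated replicate 1 took these to 0.167 and 0.154, and leaving out stimulated replicate 1 took the second to 0.189.

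Atf3 came closest to the threshold after Jun in stimulated against unstimulated Treg. It had 30.04 and 29.9 FPKM with iBP, 39.8 and 34.4 FPKM with stimulation and 22.5 and 21.4 FPKM without. The 3 groups did not overlap, with stimulated Treg highest and the iBP libraries between the others. The difference was 0.73 ± 0.16 in stimulated against unstimulated Treg (95% interval 0.38 to 1.08; adjusted p = 0.0507, limma), and over 13 alternative settings its adjusted p ranged from 0.0561 to 0.266. With iBP against unstimulated Treg it was 0.43 ± 0.16 (adjusted p = 0.268). Maf had 8.34 and 6.58 FPKM with iBP, 5.40 and 6.96 FPKM with stimulation, and 2.0 and 5.42 FPKM without. The higher unstimulated library reached into the range of stimulated Treg and lay below both iBP libraries. Its difference was 0.94 ± 0.35 with iBP against unstimulated Treg and 0.70 ± 0.35 with stimulation alone (adjusted p = 0.282 and 0.513, limma). Without unstimulated replicate 1 these differences were 0.39 and 0.15, and without unstimulated replicate 2 they were 1.49 and 1.25 (adjusted p = 0.0512 and 0.103, limma).

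Batf and Bach2, whose products compete for AP-1-like sites, had overlapping levels in the 3 groups. Batf had 19.8 and 25.8 FPKM with iBP, 20.2 and 21.8 FPKM with stimulation and 25.6 and 20.5 FPKM without. Its 95% interval in stimulated against unstimulated Treg allowed 0.688 to 1.23 times the unstimulated FPKM + 1 (adjusted p = 0.902, limma). Bach2 had 12.1 and 8.34 FPKM with iBP, 10.4 and 9.56 FPKM with stimulation and 9.75 and 11.6 FPKM without. Here the interval allowed 0.656 to 1.35 times (adjusted p = 0.947, limma). With iBP against unstimulated Treg the differences were -0.02 ± 0.19 for Batf and -0.08 ± 0.24 for Bach2, and also 0.00 ± 0.14 for Junb and 0.07 ± 0.36 for Jund, with adjusted p of 0.947 to 0.999 (limma).

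In stimulated Treg with iBP against stimulated Treg without it, 0 of 10 members passed the limma test, against 0.00958% of all tested genes, all of it higher, and 0% as lower. An unadjusted p under 0.05 was found for 0 members and 4.77% of all genes. Member differences ran from -0.29 for Atf3 to 0.24 for Maf, with a median of 0.07 beside -0.03 over all tested genes. Both ends moved with single libraries: Atf3 stood at -0.19 without stimulated replicate 1 and -0.40 without stimulated replicate 2, and Maf at 0.0812 and 0.40. Leaving out iBP replicate 1 or 2 took Maf to 0.0879 and 0.39. The 95% intervals reached at most 1.27 times for Jun, 1.24 times for Fos and 1.31 times for Junb on the scale of FPKM + 1, and at least 0.89, 0.876 and 0.854 times. On the log2 scale they ran from -0.64 to 0.05 for Atf3, -0.69 to 0.31 for Fosl2, -0.36 to 0.38 for Fosb, -0.32 to 0.52 for Batf, -0.50 to 0.53 for Bach2, -0.53 to 1.01 for Maf and -0.70 to 0.86 for Jund. Libraries did not overlap for Jun, which lay higher with iBP, nor for Atf3 and Fosl2, which lay lower. Such separation was found in 13.6% of all tested genes in the higher and 21% in the lower direction.

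**Figure D2:**
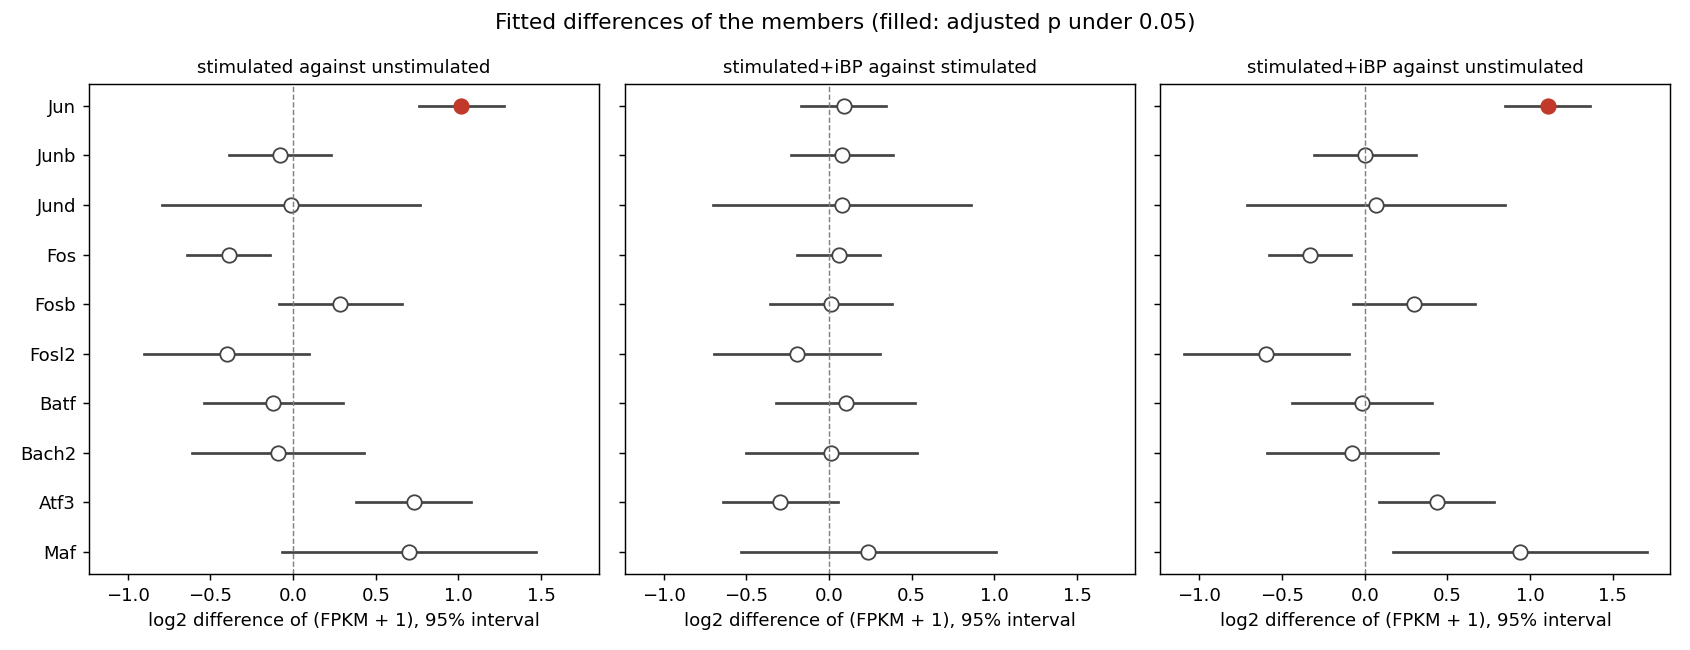
Log2 difference of FPKM + 1 (x axis) of each member (rows) with its 95% interval in the 3 comparisons; filled points passed at an adjusted p under 0.05. Jun alone is filled, at 1.02 and 1.11 against unstimulated Treg, and all 10 intervals between stimulated Treg with and without iBP include 0.

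FPKM is scaled to length, so the make-up of the JUN and FOS families was described within each library. Shares between genes depend on the gene models used, which were not stated. Jund shares 919 bases with the antisense gene Gm11175, and its RefSeq promoter window lies wholly before its GENCODE M21 gene. Its share is the less certain for this. Jun made up 28.2% and 29.9% of summed JUN-family FPKM with iBP, 27.5% and 30.3% with stimulation, and 17.0% and 14.9% without. Junb made up nearly all of the rest and Jund at most 0.222% in any library. The share of Jun separated both stimulated groups from the unstimulated one, but with 2 libraries a group the exact two-sided permutation test cannot give a p under 0.333, the value found in both. Fos made up 87.2% to 92.0% of FOS-family FPKM, and the share of Fosb was 8.97% and 10.3% with iBP, 10.2% and 9.39% with stimulation, and 5.48% and 7.28% without. The ratio of Jun to Fos FPKM was 1.06 and 1.28 with iBP, 1.11 and 1.17 with stimulation and 0.372 and 0.492 without. Jun exceeded Fos in each of the 4 stimulated libraries and stood below it in both unstimulated ones.

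**Figure D3:**
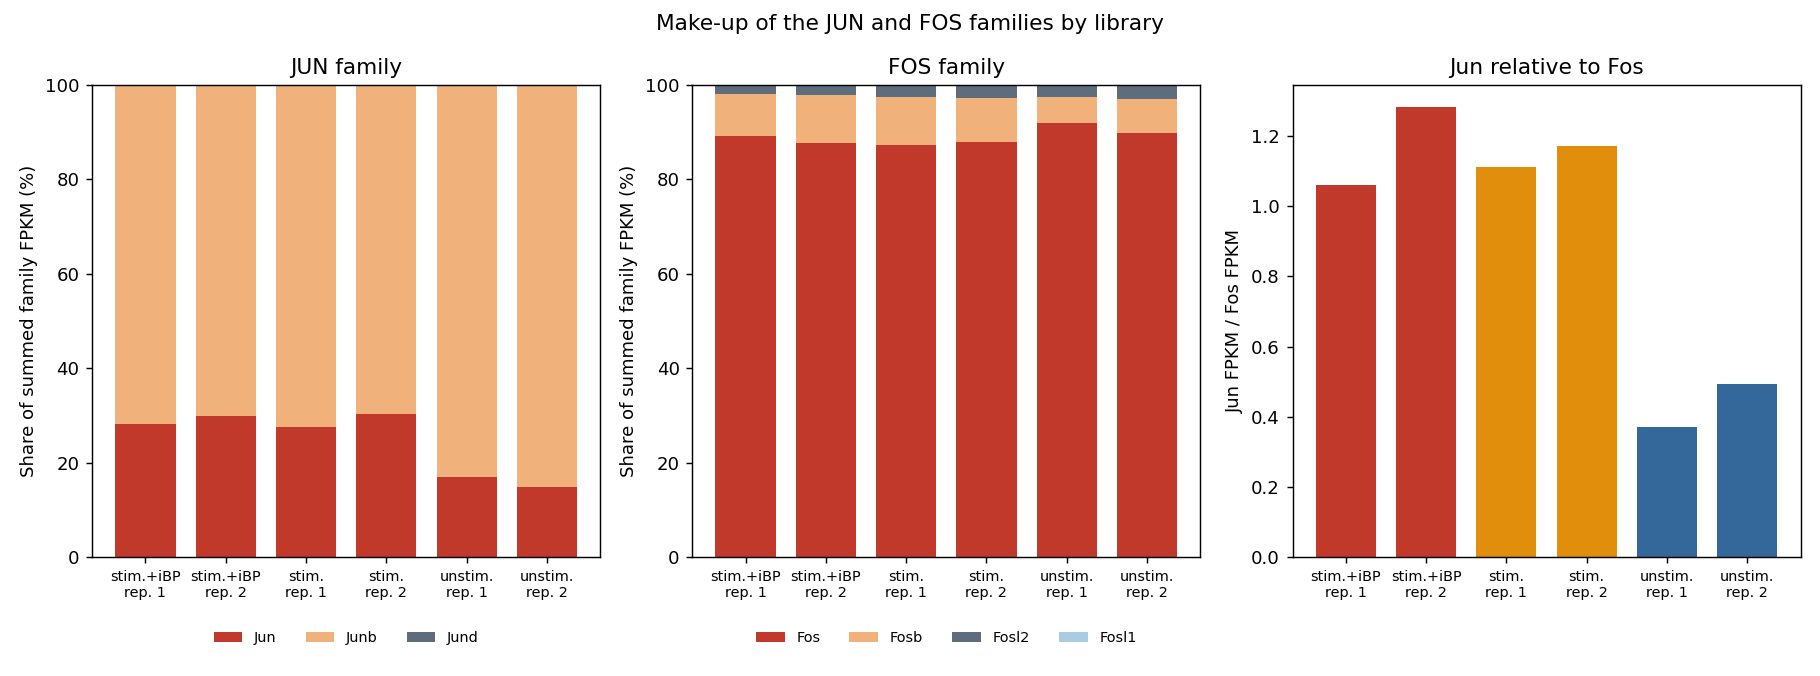
Share of summed family FPKM (y axis, percent) of each JUN and FOS gene, and the ratio of Jun to Fos FPKM, by library (x axis). Jun takes 27.5% to 30.3% of the JUN family in stimulated libraries, against 14.9% and 17.0% in unstimulated ones; Fosl1, at most 0.303%, is too thin to see.

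The order of levels was Junb, Jun, Fos, Atf3, Fosb, Batf, Bach2, Fosl2, Maf and Jund in stimulated Treg, and no neighbours in it overlapped. With iBP it differed only in that Maf stood above Fosl2, and there Atf3 overlapped Fosb and Bach2 overlapped Maf. In unstimulated Treg Fos stood above Jun, the libraries of Fosb, Batf and Atf3 overlapped, and so did those of Bach2 and Fosl2. By mean level over the 6 libraries, Junb, Fos and Jun ranked at the 99.6th, 98.3rd and 98.0th percentile of tested genes, and Jund at the 13.4th. Together the 10 members took 0.404% and 0.403% of summed FPKM with iBP, 0.39% and 0.358% with stimulation, and 0.33% and 0.399% without. Replicates differed most for Maf in unstimulated Treg, by -1.10 on the log2 scale (96.0th percentile of tested genes), and for Jund with iBP, by 0.66 (89.9th).

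In GENCODE M21 on GRCm38, Jun is a gene of 1 exon at chr4:95049034-95052222 (minus strand), Fos lies at chr12:85473890-85477273 (plus strand) and Atf3 at chr1:191170296-191218039 (minus strand). The antisense gene Junos shares 689 bases with Jun, and Gm11175 shares 919 with Jund. Junb shares 351 bases with Prdx2 on the other strand, which had 102 and 99.5 FPKM with iBP, 121 and 102 FPKM with stimulation and 132 and 120.3 FPKM without. The sources used here do not say whether strand was used in counting, and without it reads in such overlaps cannot be told apart.

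Other genes of the pathway were taken from 6 lists. The lists were chosen with earlier results of these data known, so their counts and medians only describe them. Of all tested genes, 1.29% passed in stimulated and 1.75% in iBP Treg, each against unstimulated Treg, and 0.00958% between the stimulated groups. Of the calls named for them and for the genes most like Jun, only those of Il22 held both with no filter and with no variance trend, and Il17a held in stimulated Treg with no trend. Of 17 other bZIP relatives, 10 were tested and 0 passed in any comparison by limma. In stimulated against unstimulated Treg the largest differences were those of Nfe2l2, the NRF2 gene, at 0.40 (adjusted p = 0.405), the small MAF gene Mafk at 0.23 (0.697) and Atf1 at -0.22 (0.808). Those not tested, Fosl1 and Batf3 among them, were below the filter. Of 18 tested MAP kinase and serum response factor genes upstream of AP-1, 0 passed in any comparison. Their median was -0.15 in stimulated against unstimulated Treg, with 5 of 18 above 0, beside -0.0024 over all tested genes. Mapk8, which encodes the JUN kinase JNK1, stood at -0.65 (adjusted p = 0.238), Map2k7, a kinase of JNK, at 0.63 (0.508) and Elk4, a partner of serum response factor, at -0.53 (0.526). Map2k7 had 8.99 and 11.8 FPKM with iBP, 12.2 and 11.9 FPKM with stimulation, and 4.87 and 11.1 FPKM without, so its difference rests mostly on unstimulated replicate 1.

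Of 8 DNA-binding partners, Irf4 rose, with 110.3 and 102 FPKM with iBP, 113 and 119 FPKM with stimulation, and 61.3 and 70.6 FPKM without. Its difference was 0.68 ± 0.13 with iBP and 0.81 ± 0.13 without, each against unstimulated Treg (adjusted p = 0.0216 and 0.00918, limma). In stimulated Treg this was lost when stimulated replicate 2 (0.0867) or unstimulated replicate 1 (0.0554) was left out. With iBP it was lost when unstimulated replicate 1 (0.111) or either iBP library (0.229 and 0.122) was left out. The NFAT genes Nfatc1, Nfatc2 and Nfatc3 were named in the list and did not pass.

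Of 11 tested genes reported as targets of AP-1, BATF or MAF in T cells, 5 rose and 0 fell in stimulated against unstimulated Treg by limma: Il22, Csf2, Il17a, Il2ra and Icos. Of all tested genes 0.968% passed as higher and 0.326% as lower. The list had a median of 0.92, beside -0.0024 over all tested genes. Because it was chosen with earlier results of these data known, neither its count nor its median tests the pathway. Il22, a cytokine gene, had 128 and 82.5 FPKM with iBP, 129.5 and 184 FPKM with stimulation, and 1.85 and 1.99 FPKM without. Icos, a costimulatory receptor gene, had 204 and 207 FPKM with iBP, 205 and 229 FPKM with stimulation, and 106 and 109 FPKM without. In both genes every stimulated library lay above both unstimulated ones. The differences in stimulated against unstimulated Treg were 5.73 ± 0.22 for Il22 and 1.01 ± 0.11 for Icos (adjusted p = 1.56e-07 and 0.000993, limma). With iBP against unstimulated Treg, where 1.03% of all tested genes passed as higher, 5 rose as well: Il22, Csf2, Il2ra, Icos and Ctla4. Il17a stood at 1.25 there (adjusted p = 0.0761, limma). Of these, Il2ra lost its call without unstimulated replicate 2 (0.055) or either iBP library (0.141 and 0.0937), and Ctla4 without any 1 of the 4 libraries compared (0.0629 to 0.301). Il2ra and Ctla4 are also among the Treg markers. Between stimulated Treg with iBP and without it 0 of 11 passed, with Il17a at -1.20 (adjusted p = 0.959, limma).

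Of 9 genes reported as repressed by BACH2, Gzmb (granzyme B) rose and Ccr8 (a chemokine receptor of tissue Treg) fell in both comparisons with unstimulated Treg. Ccr8 had 304 and 321 FPKM with iBP, 337 and 377 FPKM with stimulation, and 550.0 and 505 FPKM without. Its difference was -0.75 ± 0.11 with iBP and -0.56 ± 0.11 without (adjusted p = 0.00438 and 0.0284, limma). In stimulated Treg the call was lost without any 1 library other than unstimulated replicate 2 (0.053 to 0.137), and with iBP without either iBP library (0.0821 and 0.0549). Gzmb stood at 1.55 with iBP and 1.86 without (adjusted p = 0.0148 and 0.00559, limma). With iBP its call was lost without either iBP library (0.136 and 0.0938), and in stimulated Treg without stimulated replicate 2 (0.111).

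Early-response genes, some of which also react to handling of cells, went both ways. Of 17, Myc rose and Dusp1 fell in both comparisons with unstimulated Treg. Dusp1, a phosphatase that switches off MAP kinases, had 282 and 263 FPKM with iBP, 282 and 314 FPKM with stimulation, and 534 and 479 FPKM without, a difference of -0.89 ± 0.11 with iBP and -0.76 ± 0.11 without (adjusted p = 0.00183 and 0.00535, limma). Myc, a growth regulator, stood at 0.97 ± 0.12 with iBP and 0.95 ± 0.12 without (adjusted p = 0.0015 and 0.0017, limma). With iBP against unstimulated Treg the heat shock gene Hspa1a also rose (0.73, adjusted p = 0.0299, limma) and Ier2 fell (-0.84, adjusted p = 0.0133). The Hspa1a call was lost without any 1 of the 4 libraries compared (0.0752 to 0.208), and that of Ier2 without unstimulated replicate 1 (0.0752) or either iBP library (0.103 and 0.113). The part of cell handling in the values of Jun, Fos and Atf3 was not tested.

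**Figure D4:**
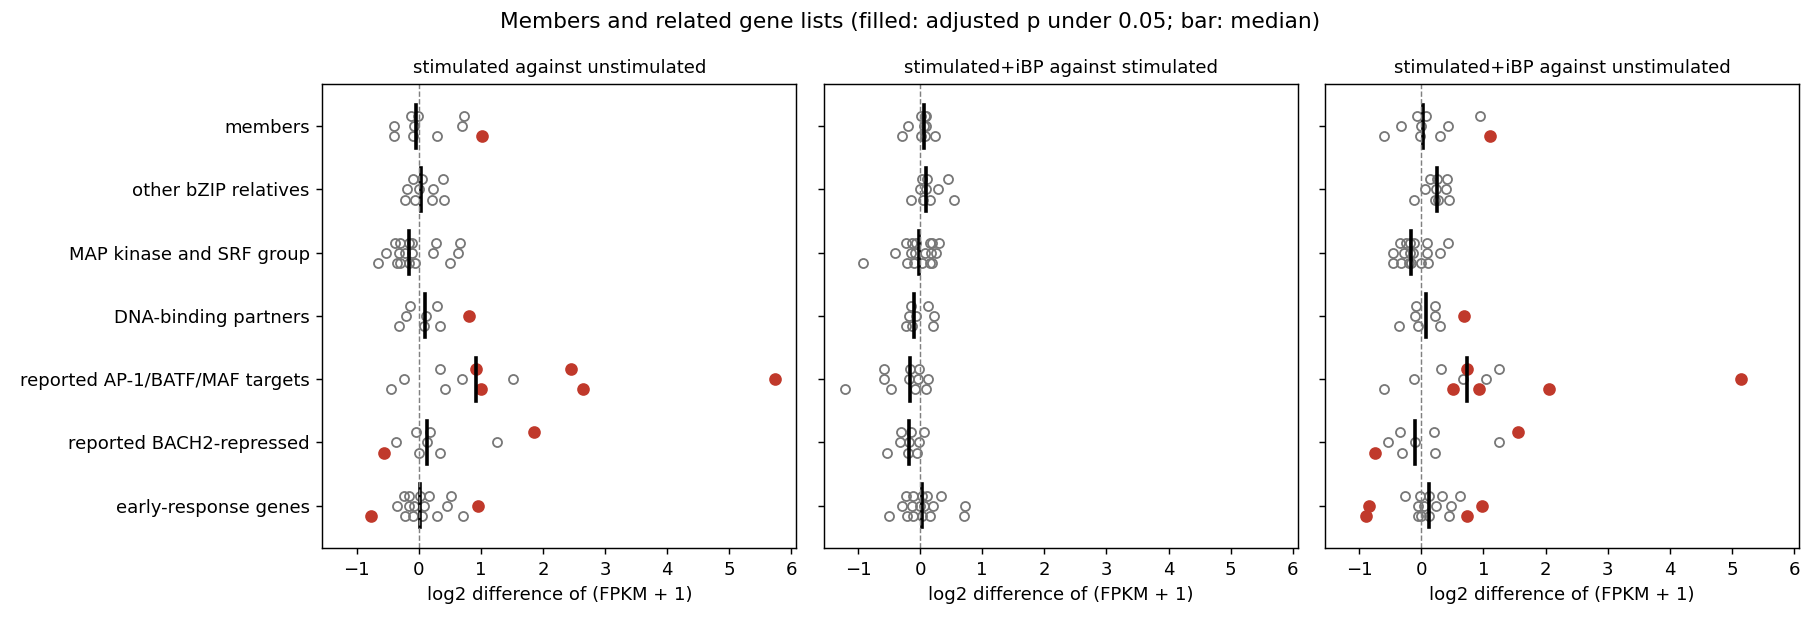
Log2 difference of FPKM + 1 (x axis) of each tested gene in the members and 6 related lists (rows) in the 3 comparisons; filled points passed at an adjusted p under 0.05 and bars are medians. The reported AP-1, BATF and MAF targets have medians of 0.74 with iBP and 0.92 without against unstimulated Treg, beside 0.03 and -0.05 for the members. The lists were chosen with earlier results of these data known.

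The 3 genes whose pattern was most like that of Jun were Rgs1, Aldh1a2 and Pdss1, by the root-mean-square difference between centred log2(FPKM + 1) values over 6 libraries (0.0775, 0.081 and 0.0835), among 6341 genes with a mean of at least 5 FPKM. Rgs1, a brake on G protein signalling, had 907 and 858 FPKM with iBP, 849.9 and 873 FPKM with stimulation, and 419.6 and 466 FPKM without. Like Jun, it had all 4 stimulated libraries above both unstimulated ones. These genes were chosen for their likeness to Jun in these same libraries, so such a shared pattern follows from the choice. Its differences from unstimulated Treg were 0.996 with iBP and 0.96 without (adjusted p = 0.000594 and 0.000835, limma). Pdss1, an enzyme gene of ubiquinone synthesis, passed in both (adjusted p = 0.039 and 0.0401, limma) and lost each call without any 1 library. Aldh1a2, a retinoic acid synthesis gene, did not pass (adjusted p = 0.058 and 0.0753, limma).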

How the data were processed

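The 6 libraries were read from a table of FPKM values per gene, as deposited by the authors. The submitters' processing notes name HISAT2 2.2.1, StringTie 2.1.1 and mm10; the annotation and any filters were not stated. Genes with at least 1 FPKM in at least 2 libraries were kept, 10436 of 24421, and log2(FPKM + 1) was fitted with limma 3.58.1 in R 4.3.3 (3 groups, variance trend, 3 residual and 8.52 prior degrees of freedom). The fit was tested on simulated data whose noise followed the spread that limma estimated here, so this cannot show whether that spread is right. Adjusted p-values are two-sided and Benjamini-Hochberg adjusted over all tested genes. Nothing says that libraries of a group are from different mice, so the tests weigh only the spread of these libraries, which could be technical.

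Members, lists and tests were chosen with earlier results of these data known. All members are named in each comparison. In the other lists the rule names genes that passed, or else up to 3 with the largest difference and a mean of at least 5 FPKM in the higher group; the text gives part of these, and the NFAT genes were added outside it. Alternatives were a pseudocount of 0.1, no filter, scaling by median of ratios, quantile normalization, a fit with no variance trend, a replicate block, a fit of only the 2 groups compared, and each library left out. Plots were made in matplotlib 3.10.9 under Python 3.11.15.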

Additional observations from a re-analysis of the deposited data

How the results depend on the processing

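In stimulated against unstimulated, iBP against stimulated and iBP against unstimulated Treg, in this order, 1, 0 and 1 members passed, and 135, 1 and 183 of all genes. With no filter these were 0, 0 and 0 members and 12, 0 and 11 genes, and with no variance trend 0, 0 and 0 members and 12, 0 and 9 genes; the cause was not tested. With only the groups compared in the fit, 77 genes passed in stimulated against unstimulated Treg. With 1 library left out, 1, 0 and 1 members passed each time, and 54 to 141, 0 to 5 and 53 to 190 genes. Il22 kept its calls under no filter and no variance trend, and Il17a in stimulated Treg under the second only. The other genes that passed and were named from the related lists or as most like Jun lost theirs under both. The calls of Foxp3 and Tnfrsf18, named only as Treg markers, were not tested under the alternatives. With the replicate block 79, 1 and 109 genes passed and Jun still did (adjusted p = 0.00696 and 0.00524, limma), while Ccr8 and Pdss1 in stimulated Treg and Ctla4, Irf4, Hspa1a and Pdss1 with iBP did not. Deviations of same-numbered libraries correlated at -0.0462, -0.0185 and -0.0118 across genes, so the numbers were not taken to pair them. Signs turned only in members that did not pass. With iBP against unstimulated Treg, Batf was at 0.0173 under median of ratios and 0.0304 under quantile normalization, and Junb at -0.0362 under quantile normalization. With 1 library left out, the differences in stimulated against unstimulated Treg ran from -0.31 to 0.15 for Junb, -0.0942 to 0.0687 for Jund, -0.27 to 0.0350 for Batf and -0.21 to 0.0264 for Bach2. In iBP against stimulated Treg they ran from -0.0108 to 0.17 for Junb, -0.25 to 0.41 for Jund, -0.0192 to 0.14 for Fos, -0.0850 to 0.11 for Fosb, -0.0809 to 0.28 for Batf and -0.23 to 0.26 for Bach2. In iBP against unstimulated Treg they ran from -0.23 to 0.23 for Junb, -0.26 to 0.40 for Jund, -0.20 to 0.16 for Batf and -0.32 to 0.17 for Bach2.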
